A study of Mus musculus with 72 samples.

Results

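The Nr4a family holds 3 of the 39179 genes in the count table: Nr4a1 (also called Nur77), Nr4a2 (Nurr1) and Nr4a3 (NOR-1). They are described here across 72 RNA-seq libraries from the mouse maternal brain. The members were chosen by name with earlier results of these data known, and Nr4a2 was chosen for opposite directions in different brain regions. Every comparison of a stage with virgins is therefore given for the 3 genes as a description with no test. The libraries came from 18 female C57BL/6J mice. First-time dams were pregnant on postconception day 14 or 16 (PC14, PC16) or nursing on postpartum day 1, 3 or 10 (PP1, PP3, PP10), and they were set against age-matched virgins that cycled at random, with 3 mice at each of the 6 stages. Each mouse gave hypothalamus, hippocampus, neocortex and cerebellum, so a region has 15 dams and 3 virgins. The libraries of a mouse also share 1 index sequence, so mouse and index cannot be told apart.

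Nr4a proteins are nuclear receptors that bind DNA as other members of the class do, but no hormone is known to switch them on. Their output is set mainly by how much of them a cell makes. In neurons the genes are early-response genes: they are transcribed within minutes of calcium entry or a rise in cAMP, through the transcription factors CREB and MEF2. Their proteins bind the NBRE sequence as monomers, and Nr4a1 and Nr4a2 also pair with the retinoid X receptors (RXR). Nr4a1 acts in stress hormone axes, Nr4a2 is needed for dopamine neurons of the midbrain, and all of the family have been tied to memory in the hippocampus.

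The genes lie on different chromosomes (GRCm38, GENCODE M21). Nr4a1 (ENSMUSG00000023034) spans chr15:101254269-101274795 on the plus strand, Nr4a2 (ENSMUSG00000026826) chr2:57106830-57124003 on the minus strand and Nr4a3 (ENSMUSG00000028341) chr4:48045153-48086447 on the plus strand. Promoter sequences from RefSeq (GRCm38.p6) are shown because the short cAMP response element, the site that CREB binds, is the feature they share. It is written here TGACG on either strand and is capitalised below. Windows ran from 250 bases before to 50 bases after the start site. For Nr4a1 and Nr4a2 the 250 bases before the start are printed. For Nr4a3, where a longer gene model reaches into the window, only a stretch of 30 bases with 2 of its elements is printed, since the rest is close to or within the first exon.
Nr4a1, chr15:101266596-101266845, plus strand: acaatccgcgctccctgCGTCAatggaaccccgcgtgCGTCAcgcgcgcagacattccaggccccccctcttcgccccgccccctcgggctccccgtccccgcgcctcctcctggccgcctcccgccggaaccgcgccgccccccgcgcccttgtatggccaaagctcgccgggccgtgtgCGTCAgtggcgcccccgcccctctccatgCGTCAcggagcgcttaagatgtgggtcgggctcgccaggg
Nr4a2, chr2:57124004-57124253, minus strand: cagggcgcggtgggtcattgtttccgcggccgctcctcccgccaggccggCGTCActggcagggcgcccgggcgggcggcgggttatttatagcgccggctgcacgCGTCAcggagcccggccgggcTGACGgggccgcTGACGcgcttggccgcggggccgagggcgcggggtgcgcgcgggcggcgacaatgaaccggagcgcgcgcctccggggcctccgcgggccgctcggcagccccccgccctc
Nr4a3, chr4:48045067-48045096, plus strand: aggagggTGACGtagcgtcccatgtCGTCA

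Each of the 3 windows held 4 short elements. At least 4 copies were found in 76 of 32851 promoter windows (0.231%), and at least 1 copy in 20.8%. In Nr4a2 all 4 lay before the gene. In Nr4a1 all 4 lay just before the first exon of its shorter transcripts, which is the RefSeq start, and so in an intron of a longer transcript that begins upstream. In Nr4a3 3 of 4 lay before the gene and 1 in its first exon. None of the windows held the full element TGACGTCA (1.79% of all windows), the NBRE AAAGGTCA (1.51%) or a CArG box, the site of serum response factor (1.63%), searched on both strands. The full element holds the short one on both strands. The windows were rich in G and C (72.3%, 81.7% and 64.7% for Nr4a1, Nr4a2 and Nr4a3), and a match is a run of letters, not a measured binding site.

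The hippocampus and neocortex had the most Nr4a RNA and the hypothalamus the least. By the paper's methods, hypothalamus libraries were made from less total RNA than those of the other regions. In contrasts with the hypothalamus, tissue and RNA input therefore cannot be told apart. Levels are compared here as FPKM, the authors' values per gene length and library size, and tests are log2 differences from edgeR's quasi-likelihood test on counts over all 72 libraries, adjusted over 15348 genes within each pair of regions. The main fit has no term for the mouse, so the libraries of a mouse count as independent. A fit with the mouse as a block is given at the end. Region levels were not used to choose the genes. All 18 differences (3 genes, 6 pairs) passed the threshold of 0.05, in comparisons that call most genes: 84.6% for hypothalamus minus hippocampus, 86.1% for hypothalamus minus neocortex, 88.3% for hypothalamus minus cerebellum, 71.5% for hippocampus minus neocortex, 85.5% for hippocampus minus cerebellum and 86.3% for neocortex minus cerebellum. Passing therefore does not set the family apart, and the order and size of its differences are given.

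Nr4a1 was highest in the neocortex at 68.9 ± 39.9 FPKM (SD, n = 18), next in the hippocampus at 26.3 ± 10.2, then the cerebellum at 13.7 ± 6.72 and the hypothalamus at 7.96 ± 3.18. The spread includes the stages. Hypothalamus minus neocortex was -3.22 ± 0.13 on the log2 scale (SE, edgeR adjusted p = 1.17e-30), which is a 9.35-fold lower level in the hypothalamus, and the neocortex was higher in 18 of 18 mice. The neighbours in the order also differed: hippocampus minus neocortex was -1.35 ± 0.12 (edgeR adjusted p = 7.43e-16, lower in 17 of 18 mice).

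Nr4a2 had another order. It was highest in the hippocampus at 19.1 ± 1.91 FPKM (SD, n = 18), with 9.04 ± 2.90 in the neocortex, 6.90 ± 4.14 in the cerebellum and 5.54 ± 1.45 in the hypothalamus. Hippocampus minus neocortex was 1.04 ± 0.11 (SE, edgeR adjusted p = 8.88e-13), higher in 18 of 18 mice. The lowest regions were close: hypothalamus minus cerebellum was -0.32 ± 0.13 (edgeR adjusted p = 0.0211), and the hypothalamus was higher in 8 of 18 mice and lower in 10. This call was lost when virgin replicate 3, PC14 replicate 2 or PP10 replicate 2 was left out, with differences of -0.28, -0.28 and -0.27. Without PC16 replicate 3 the difference was -0.21 and still passed.

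Nr4a3 followed the order of Nr4a2 at lower FPKM. It had 13.7 ± 1.89 FPKM in the hippocampus (SD, n = 18), 8.04 ± 3.51 in the neocortex, 4.07 ± 2.32 in the cerebellum and 2.77 ± 1.05 in the hypothalamus. Its largest contrast was hypothalamus minus hippocampus at -2.99 ± 0.12 (SE, edgeR adjusted p = 1.83e-31), lower in 18 of 18 mice. The log2 ratio of mean FPKM for this pair was smaller in size, at -2.30. Hippocampus minus neocortex was 0.90 ± 0.10 (edgeR adjusted p = 1.28e-11). Across the family the hippocampal minus neocortical difference was thus negative for Nr4a1 and positive for Nr4a2 and Nr4a3.

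**Figure D1:**
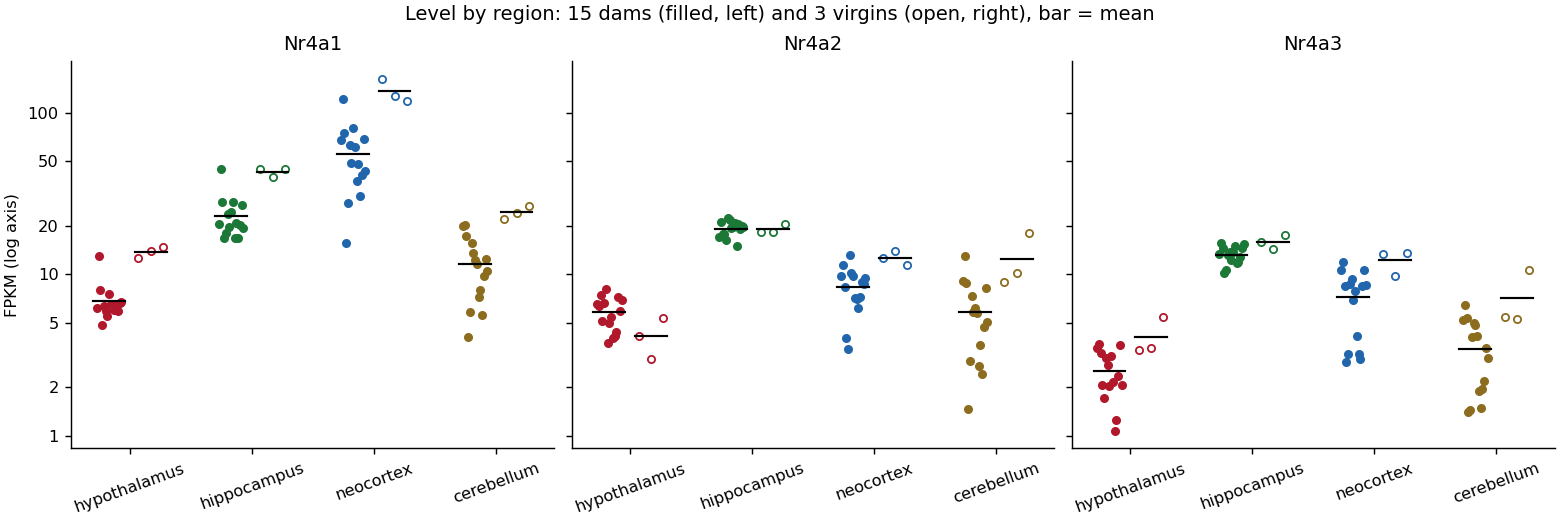
FPKM on a log axis in each region, with 15 dams filled on the left and 3 virgins open on the right of each region and bars at the means. Nr4a1 was highest in the neocortex (55.5 FPKM in dams, 136 FPKM in virgins), while Nr4a2 and Nr4a3 were highest in the hippocampus.

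The regions matched their labels when set against each other. Of the measured marker genes fixed for each region, 9 of 9 were highest in the hypothalamus, 7 of 8 in the hippocampus, 7 of 8 in the neocortex and 8 of 8 in the cerebellum. Avp, which encodes vasopressin, averaged 666 CPM (counts scaled to library size) in the hypothalamus against at most 0.99 elsewhere. Within the hypothalamus, 2 of 9 of its markers were called lower and 0 higher in dams (edgeR, median log2 fold change -0.31). Their summed levels were 932 to 2065 CPM in dams and 1744 to 1926 CPM in virgins. Of the neocortex markers, 2 of 6 were called higher there. Without virgin replicate 1 these counts were 0 of 9 and 1 of 6. Over all genes tested in the hypothalamus, 1.56% were called lower and 3.18% higher. Own-region markers were called elsewhere too. In the hippocampus 2 of 8 were lower (3.92% of all genes) and in the neocortex 2 of 8 were higher (2.98%). In the cerebellum 2 of 8 were higher and 1 lower (13.9% and 15.6%). Leaving out 1 library, the hippocampal count ran from 1 to 3 and the neocortical from 0 to 3. The part of these markers in the Nr4a values below was not tested. Libraries held 8875029 to 14208864 counts, and the 3 genes had 60 to 5225 counts in any library, so no member was near the detection limit. All 3 passed the expression filter in each region, which asked for 1 FPKM or more in every mouse of some stage. In these bulk tissues, fewer cells that express a gene and less RNA per cell cannot be told apart.

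Stage values are given as CPM scaled within a region. Nr4a1, the member with the highest mean FPKM in each region, was lower in dams than in virgins in all 4 regions. In the hypothalamus it had 34.2, 38.9 and 41.4 CPM in virgins, 17.6, 36.2 and 22.3 at PC14, 14.3, 18.2 and 16.3 at PC16, 15.2, 20.5 and 17.3 at PP1, 18.5, 16.4 and 18.1 at PP3, and 16.6, 18.1 and 19.1 at PP10. One PC14 mouse, replicate 2, stood among the virgins and the other 14 dams below all of them. The share of all genes with 14 of 15 dams below the virgins was not counted, here or in the regions that follow. The fitted log2 fold change of dams over virgins was -1.02 ± 0.13 (SE), close to 0.491 of the virgin level.

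In the neocortex Nr4a1 was lower still relative to virgins. It had 453, 355 and 331 CPM in virgins, 187, 337 and 209 at PC14, 43.2, 79.9 and 176 at PC16, 133, 222 and 170 at PP1, 103, 137 and 86.0 at PP3, and 117, 195 and 120 at PP10. The same PC14 mouse was again the only dam within the virgin range, and PC16 replicate 3 stood above the other PC16 mice. The log2 fold change was -1.38 ± 0.21 for all dams, reaching -1.93 ± 0.31 at PC16 and -1.81 ± 0.31 at PP3. Without PC16 replicate 3, the highest of its stage, the PC16 value was -2.62.

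In the cerebellum Nr4a1 was below all 3 virgins in all 15 dams, which holds for 1.24% of the genes tested there. It had 62.6, 65.6 and 75.9 CPM in virgins, 56.7, 57.9 and 49.0 at PC14, 11.5, 16.2 and 45.7 at PC16, 39.1, 35.1 and 32.7 at PP1, 21.0, 21.7 and 15.9 at PP3, and 27.4, 35.9 and 29.8 at PP10. PC14 was nearest to the virgins at -0.32 ± 0.26 log2 units and PP3 farthest at -1.81 ± 0.29, while PC16 was at -1.50 ± 0.28. Without PC16 replicate 3 the PC16 value was -2.31, beyond that of PP3. In the hippocampus Nr4a1 had 46.3 CPM in the lowest dam, a median of 56.8 and 127 in the highest, against 129, 114 and 126 CPM in virgins. The highest dam was once more PC14 replicate 2, and the log2 fold change of all dams was -0.97 ± 0.15 (SE).

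Counted by stage, all 3 mice were below all 3 virgins for Nr4a1 in 5 of 5 stages in the cerebellum and in 4 of 5 in each of the other regions, PC14 being the exception. Over all genes tested, 3 mice lay below the 3 virgins at PC14, PC16, PP1, PP3 and PP10 in 6.82%, 9.07%, 9.35%, 10.1% and 9.42% of genes in the cerebellum. The same shares were 6.08%, 8.77%, 8.82%, 9.26% and 13.5% in the hypothalamus, 9.71%, 12.6%, 11.9%, 8.91% and 12% in the hippocampus, and 6.53%, 9.83%, 15.4%, 13.9% and 10.5% in the neocortex. Nothing is read from these shares, since the genes were chosen with the contrasts known. These comparisons share the same 3 virgin libraries and are not independent of each other.

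**Figure D2:**
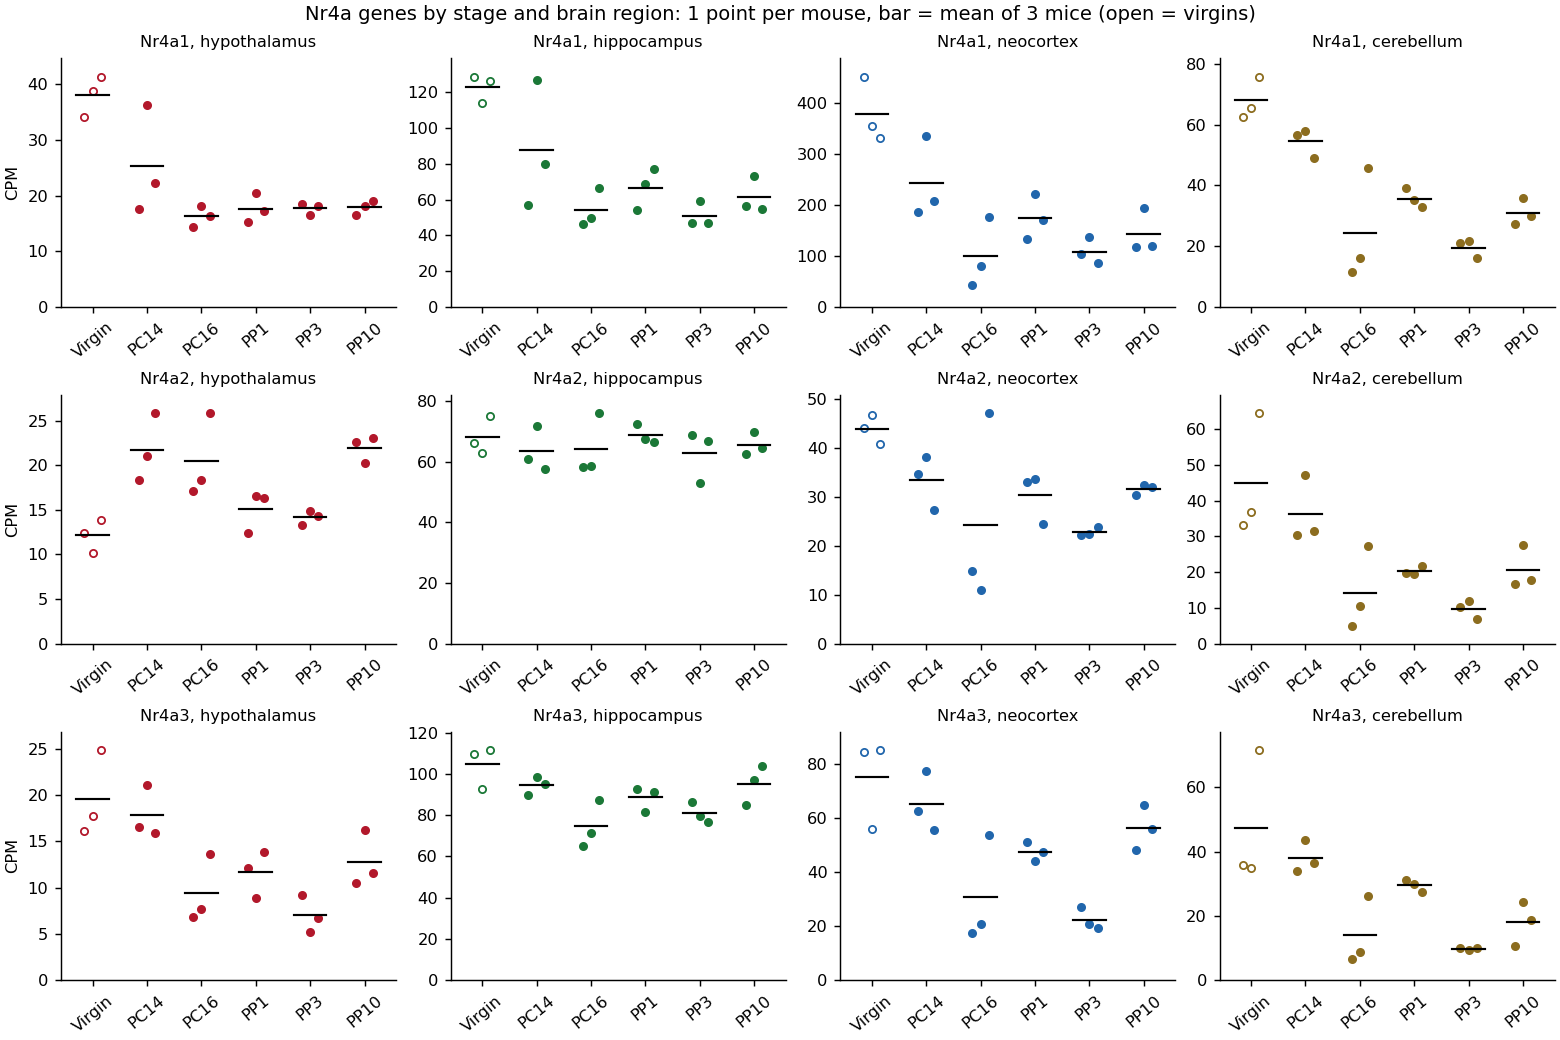
CPM of each gene (rows) in each region (columns) by stage, with 1 point per mouse, a bar at the mean of 3 mice and virgins open; each panel has its own axis from 0. Nr4a2 in the hypothalamus was higher at PC14, PC16 and PP10 than in virgins, while in the cerebellum Nr4a2 was lower from PC16 on, as low as 4.90 CPM.

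Nr4a2 went in different directions by region, the pattern it was chosen for. In the hypothalamus it was higher in dams. It had 12.4, 10.2 and 13.9 CPM in virgins, 18.4, 21.0 and 25.9 at PC14, 17.1, 18.4 and 25.9 at PC16, 12.4, 16.5 and 16.3 at PP1, 13.3, 14.9 and 14.3 at PP3, and 22.6, 20.3 and 23.1 at PP10. The pregnant mice and those at PP10 were all above the virgins, and those at PP1 and PP3 overlapped them. The log2 fold change over virgins was 0.84 ± 0.16 at PC14 and 0.75 ± 0.16 at PC16. It was smaller just after birth, with 0.30 ± 0.17 at PP1 and 0.22 ± 0.17 at PP3, and reached 0.86 ± 0.16 at PP10. Over all dams the value was 0.59 ± 0.13 (SE), or 1.51-fold. All 3 mice lay above all virgins at 3 of 5 stages, while 8.36%, 9.9%, 9.48%, 10.3% and 14.4% of the genes tested did so at the 5 stages in order.

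In the cerebellum Nr4a2 was lower in dams. It had 33.3, 37.0 and 64.5 CPM in virgins, 30.3, 47.3 and 31.5 at PC14, 4.90, 10.4 and 27.3 at PC16, 19.7, 19.5 and 21.7 at PP1, 10.3, 11.9 and 6.86 at PP3, and 16.6, 27.7 and 17.8 at PP10. PC14 overlapped the virgins, and every mouse of the later stages was below them. The log2 fold change was -2.22 ± 0.39 at PP3, close to a level of 0.214 relative to virgins, and -1.30 ± 0.26 over all dams. Virgin replicate 3 was the highest library, and without it the value for all dams was -0.96. Over all genes tested there, 3 mice lay below the virgins in 9.07%, 9.35%, 10.1% and 9.42% at PC16, PP1, PP3 and PP10.

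In the neocortex the difference was smaller and of the same sign as in the cerebellum. Nr4a2 had 44.0, 46.7 and 40.7 CPM in virgins, 34.7, 38.3 and 27.3 at PC14, 14.8, 11.0 and 47.1 at PC16, 33.1, 33.8 and 24.4 at PP1, 22.2, 22.4 and 23.8 at PP3, and 30.3, 32.5 and 31.9 at PP10. PC16 replicate 3 was above the virgins and the other 14 dams below them, and the log2 fold change of all dams was -0.64 ± 0.20 (SE). How many of all genes had as many dams below the virgins was not counted, and nothing is read from this number. The 2 other PC16 mice were the lowest libraries of the region, and without replicate 3 the PC16 value was -1.77 rather than -0.87. Over all genes tested there, all mice lay below the virgins in 6.53%, 15.4%, 13.9% and 10.5% at PC14, PP1, PP3 and PP10.

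In the hippocampus, where Nr4a2 is most abundant, dams and virgins overlapped throughout. The lowest dam had 53.1 CPM, the median 66.5 and the highest 76.0, against 66.1, 62.9 and 75.2 CPM in virgins. The log2 fold change was -0.07 ± 0.08 (SE), and stage values ran from -0.11 to 0.02. Leaving out 1 library at a time moved the value for all dams between -0.12 and 0.01, so it had no stable sign.

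**Figure D3:**
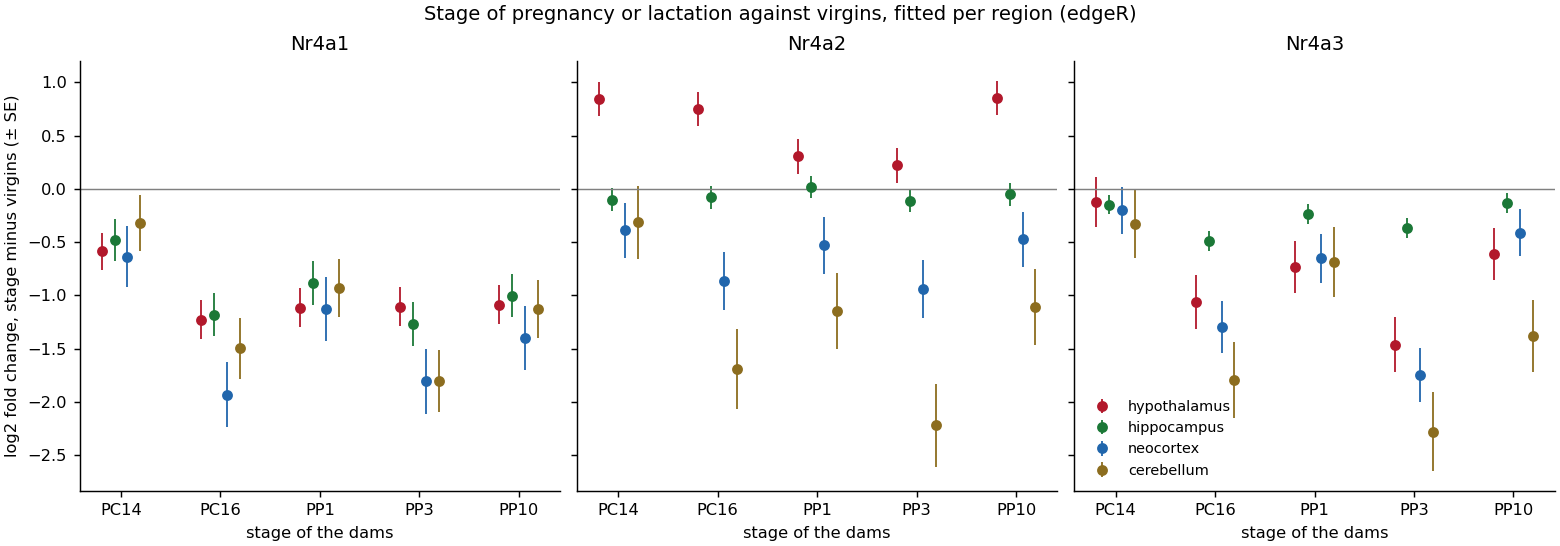
Log2 fold change of each stage over virgins, with its standard error, for each gene and region. For Nr4a2 the hypothalamus (red) lay above 0 at every stage, the hippocampus (green) near 0, and the neocortex and cerebellum below, down to -2.22 at PP3; for Nr4a1 every value was below 0.

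Nr4a3 was lower in dams in all 4 regions, least in the hippocampus. In the cerebellum it had 35.9, 34.9 and 71.6 CPM in virgins, 33.8, 43.7 and 36.4 at PC14, 6.70, 8.86 and 26.2 at PC16, 31.2, 29.9 and 27.4 at PP1, 9.98, 9.30 and 9.97 at PP3, and 10.7, 24.4 and 18.8 at PP10. From PC16 on every mouse was below the virgins, and the PP3 mice were close to each other. The log2 fold change was -2.28 ± 0.37 at PP3 and -1.30 ± 0.24 over all dams (SE). Without virgin replicate 3 the value for all dams was -0.88.

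In the neocortex Nr4a3 had 84.4, 55.9 and 85.1 CPM in virgins, 62.7, 77.3 and 55.5 at PC14, 17.6, 21.0 and 53.6 at PC16, 51.1, 44.1 and 47.4 at PP1, 27.1, 20.7 and 19.3 at PP3, and 48.1, 64.9 and 55.9 at PP10. PC14 and PP10 overlapped the virgins, and PC16, PP1 and PP3 did not. The log2 fold change was -1.75 ± 0.25 at PP3 and -0.86 ± 0.17 over all dams. In the hypothalamus the same value was -0.80 ± 0.18, with 5.26 CPM in the lowest dam, a median of 11.6 and 21.1 in the highest, against 16.1, 17.7 and 24.9 CPM in virgins. In the hippocampus it was -0.28 ± 0.07, with 65.0, 87.3 and 104 CPM in the lowest, median and highest dams against 109, 92.9 and 112 CPM in virgins. Counted by stage, all 3 mice were below all virgins for Nr4a3 in 4 of 5 stages in the cerebellum, 3 in the neocortex and in the hypothalamus, and 2 in the hippocampus. The shares of all genes are those given with Nr4a1, from 6.08% to 15.4% by stage and region. Nothing is read from these counts.

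Except for Nr4a2 in the hypothalamus, each gene had its lowest stage mean at PC16 or PP3 in each region. For Nr4a3 the mean was lowest at PP3 in the hypothalamus (7.04 CPM), neocortex (22.3 CPM) and cerebellum (9.75 CPM), and at PC16 in the hippocampus (74.6 CPM). This order turned on PC16 replicate 3: without it the log2 fold change of Nr4a3 at PC16 was -1.95 in the neocortex and -2.62 in the cerebellum, beyond the PP3 values of -1.75 and -2.28. For Nr4a2 in the cerebellum the mean was 9.68 CPM at PP3, with 20.3 CPM at PP1 before it and 20.7 CPM at PP10 after it. In the hypothalamus Nr4a2 was also lower at PP3 (14.2 CPM) than at PP10 (22.0 CPM), although above the virgin mean of 12.2 CPM. These are stage means of 3 mice and were not tested against each other.

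The makeup of the family's RNA is given as shares of the summed FPKM. They rest on the values the genes were chosen with, so a gap between dams and virgins is a description with no test. In the hypothalamus Nr4a2 made up 38.5 ± 5.97% of the summed FPKM in dams (SD, n = 15), against 18.8 ± 3.65% in virgins (SD, n = 3), and Nr4a1 45.0 ± 6.53% against 62.9 ± 5.34%. The lowest dam had 27.5% Nr4a2 and the highest virgin 21.1%, so the groups did not overlap in this share. The FPKM of Nr4a2 itself did overlap, with 3.77 to 8.13 in dams and 2.98 to 5.38 in virgins. The hippocampus had 35.1 ± 4.38% Nr4a2 in dams against 24.3 ± 0.943% in virgins while its own level was close in both groups, and the lowest dam at 25.8% stood just above the highest virgin at 25.0%. In the neocortex the groups overlapped, with 7.84% to 17.9% Nr4a2 in dams and 6.65% to 9.15% in virgins. In the cerebellum the 3 genes were lower together and the share of Nr4a2 was 27.0 ± 3.32% in dams against 27.7 ± 4.40% in virgins.

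**Figure D4:**
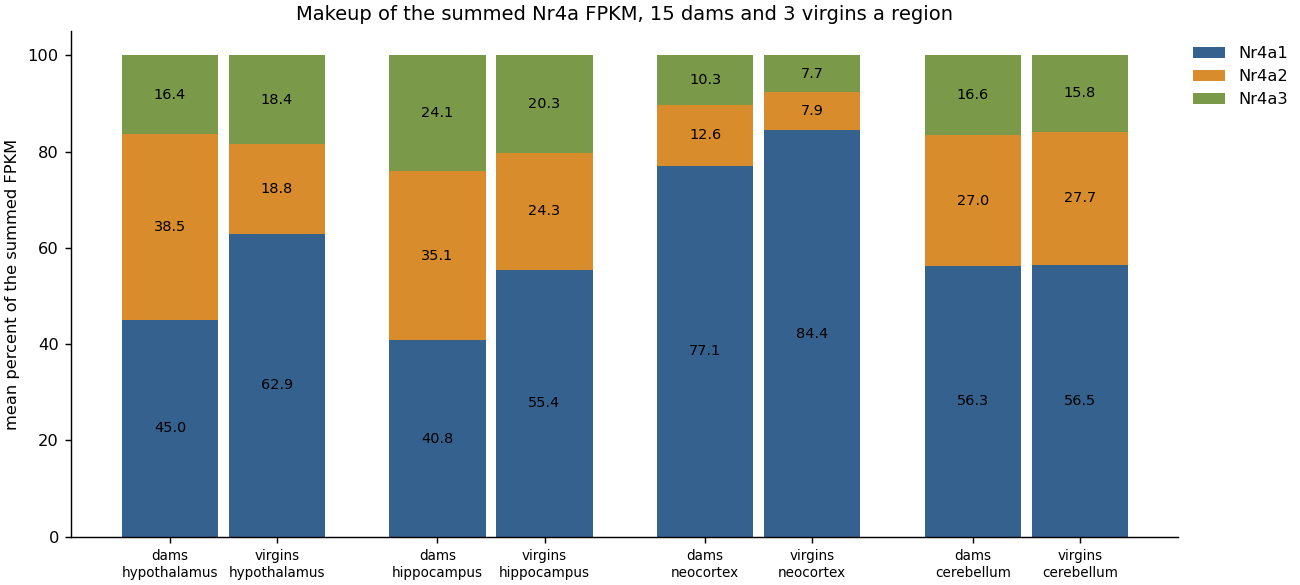
Mean percent of the summed Nr4a FPKM that each gene made up, with dams left of virgins in each region. In the hypothalamus Nr4a2 took 38.5% in dams and 18.8% in virgins, while in the cerebellum the makeup was close in both groups.

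Mice of the same stage differed from each other, and these differences, which were not used to choose the genes, were compared between regions and between genes. Each library's log2 CPM was set against the mean of its stage, and deviations of the 18 mice were correlated, with exact two-sided permutation tests over all 46656 orders of mice within stages and adjustment over the relations of a family. For Nr4a3, a mouse high in one region tended to be high in the others: all 6 pairs of regions passed, with Pearson r from 0.72 to 0.87. Hippocampus and neocortex gave r = 0.87 and Spearman rho = 0.84 (exact permutation p = 0.000964 and 0.00159, adjusted over 18 relations 0.00772 and 0.0133), and r = 0.78 without the 2 mice farthest from the median. For Nr4a1, 1 of 6 pairs passed: hippocampus and neocortex had r = 0.75 and rho = 0.88 (exact permutation p = 0.000857 and 0.00107, adjusted 0.00772 and 0.0133), and r = 0.82 without the 2 farthest mice. For Nr4a2, 0 of 6 pairs passed, with r from 0.23 to 0.62. Hypothalamus and neocortex had r = 0.37 and rho = -0.05 (exact permutation p = 0.523 and 0.896, adjusted 0.554 and 0.896), and 1 of the 6 had an unadjusted exact permutation p below 0.05 (hippocampus and neocortex, p = 0.0428).

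Within a region, deviations of 2 members were shared in the cerebellum. Nr4a1 and Nr4a2 had r = 0.91 and rho = 0.82 there (exact permutation p = 0.00172 and 0.00319, adjusted over 12 relations 0.0146 and 0.0306), and r = 0.73 without the 2 farthest mice. Nr4a1 with Nr4a3 gave r = 0.85 and Nr4a2 with Nr4a3 r = 0.87, both passing (exact permutation test, adjusted p = 0.0146 for each). In the other regions 0 of 9 relations passed by Pearson r, with r from 0.24 to 0.77. By rank, Nr4a2 and Nr4a3 in the hippocampus also passed (rho = 0.64, exact permutation adjusted p = 0.0469). Genes of one library share its depth and makeup.

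None of these calls held without the PC16 mice, among which replicate 3 was the highest in the neocortex and cerebellum for each gene. Without that stage, in an alternative chosen after seeing the data, 15 mice remained and none of the 10 relations passed by Pearson r. Nr4a3 then had r from 0.56 to 0.80 between regions, Nr4a1 in hippocampus and neocortex r = 0.82 (exact permutation test, adjusted p = 0.0521), and the cerebellar pairs r from 0.60 to 0.80. For Nr4a2, hypothalamus and neocortex then gave r = -0.59 (exact permutation test, adjusted p = 0.296). Whether these deviations come from the mice or from their index and handling cannot be told apart.

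**Figure D5:**
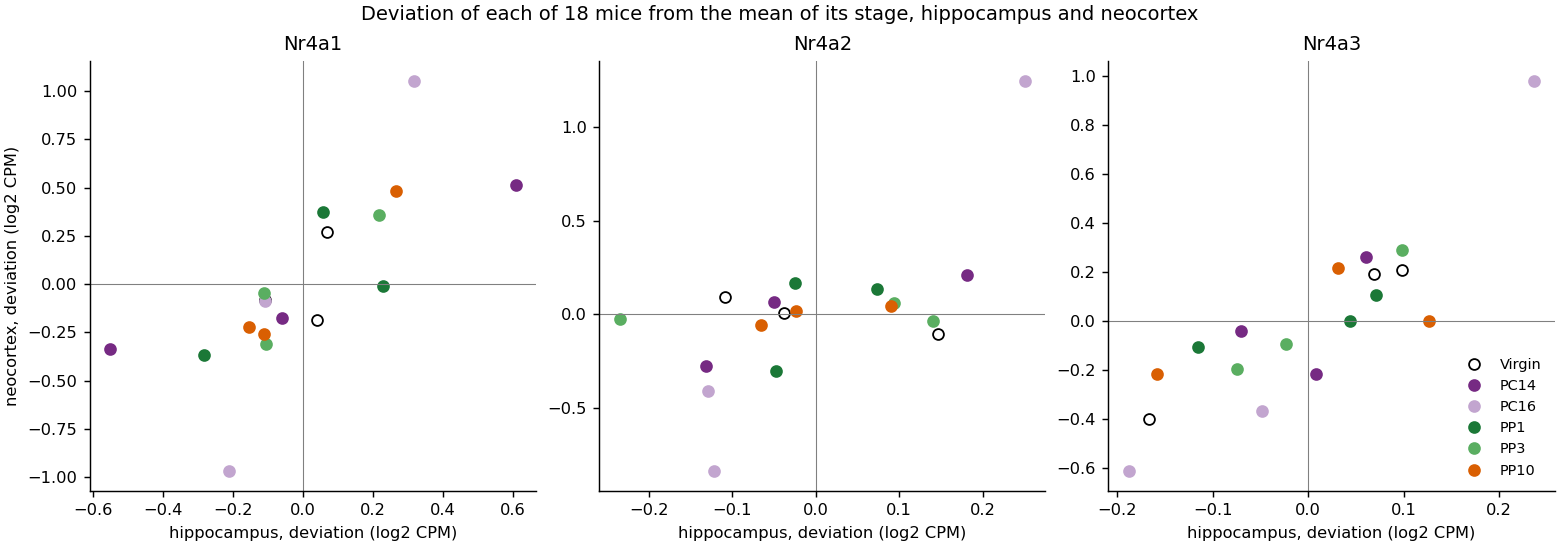
Deviation of each of 18 mice from its stage mean (log2 CPM) in the hippocampus and neocortex, coloured by stage. For Nr4a1 (r = 0.75) and Nr4a3 (r = 0.87) mice high in one region tended to be high in the other; for Nr4a2 (r = 0.62) the upper right point, PC16 replicate 3, lay apart from the rest.

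The genes most like each member over the 72 libraries, after removing region means, included several early-response genes. This is a description over libraries that share mice and stages, among 12632 genes ranked. Stage differences were left in, so the contrast of dams with virgins that the members were chosen with is part of this likeness. Nr4a1 was most like Fos (Pearson r = 0.92), an AP-1 subunit, followed by the clock gene Per1 (0.88), the pseudokinase gene Trib1 (0.87), the kinase gene Sik1 (0.86) and the phosphatase gene Dusp1 (0.86). Nr4a3 was most like Fosl2 (0.90), another AP-1 gene, then Fos (0.87), Per1 (0.83), Nr4a1 (0.81) and Spry4 (0.81), which encodes an inhibitor of receptor tyrosine kinase signals. Nr4a2 was less tightly matched: Spry4 came first (0.82), then Fosl2 (0.76), Nr4a3 (0.76), Fos (0.73) and Irf2bp2 (0.67). Nr4a1 ranked 6 for Nr4a2 (0.67), and Nr4a2 ranked 33 for Nr4a1.

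Other early-response genes were also lower in dams. Of a list of 28, chosen with earlier results in view and named in part by the study from these samples, so that its direction is not independent evidence, 11 of 25 tested were called lower and 1 higher in the hypothalamus, where 1.56% of all genes were called lower and 3.18% higher (edgeR, adjusted p under 0.05). In the hippocampus 17 of 26 were lower (3.92% of all genes), in the neocortex 19 of 26 (4.02%) and in the cerebellum 15 of 22 (15.6%). In these regions 0 of the list were called higher, against 2.23%, 2.98% and 13.9% of all genes. The number of all genes called moved with single virgins in each region: 683 in the hypothalamus and 167 without virgin replicate 1, 856 in the hippocampus and 106 without replicate 1, 952 in the neocortex and 291 without replicate 3, and 4070 in the cerebellum with 189 without replicate 1 and 7415 without replicate 3. The shares above depend on those virgins too. The higher gene in the hypothalamus was Bdnf, a neurotrophin named after its value was seen, and its call was lost without virgin replicate 1 or 2. The median log2 fold change of the list was -0.40, -0.43, -0.81 and -0.46 in these regions in that order, against medians from -0.0034 to 0.0023 for all genes tested. Counts fell to 10 of 26 in the hippocampus without virgin replicate 1 or 3, and to 8 and 9 of 22 in the cerebellum without virgin replicate 1 or 2.

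The members of that list named next are those called with the largest fold changes, a choice that makes them large. Fos fell in the hypothalamus to 12.2 ± 5.41 CPM in dams (SD, n = 15), against 30.1 ± 7.29 CPM in virgins (SD, n = 3), a log2 fold change of -1.38 ± 0.23 (SE, edgeR adjusted p = 0.00305). Egr1, a zinc-finger transcription factor, fell there by 1.06 on the log2 scale and Fosb by 1.21. Among genes named in the other regions, falls were seen in Egr2 (-2.02) and Npas4 (-1.40) in the hippocampus, Egr2 (-1.87) and Btg2 (-1.57) in the neocortex, and Fos (-1.97) and Dusp1 (-1.29) in the cerebellum. All of these remained called without any 1 library.

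Genes that work with or upstream of Nr4a proteins were counted against the same shares of all genes: 1.56% lower and 3.18% higher in the hypothalamus, 3.92% and 2.23% in the hippocampus, 4.02% and 2.98% in the neocortex, and 15.6% and 13.9% in the cerebellum. With lists this short, no count is read as above or below them. Of 3 RXR partners, Rxra rose in the hippocampus (0.32 ± 0.04 log2 units, SE, edgeR adjusted p = 0.000591, called without any 1 library), and Rxrb fell in the cerebellum by 0.12 (adjusted p = 0.0442), a call lost without any 1 of 9 of the 18 libraries. Of 16 upstream activators and repressors (CREB, CRTC and MEF2 family genes, calcineurin, CaM kinase and class IIa histone deacetylases), 0 of 16 were called in the hypothalamus and hippocampus. In the neocortex Ppp3ca, a calcineurin subunit, rose by 0.13 ± 0.03 and Crtc2, a CREB coactivator, fell by 0.20. In the cerebellum Hdac4, a repressor of MEF2, rose by 0.79 ± 0.17 and Camk4, a kinase of CREB, by 0.22 ± 0.07. Each of the last 4 calls was lost without at least 1 virgin library, and without virgin replicate 3 of the cerebellum 9 of 16 were called higher and 1 lower there.

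The shares of all genes called, just given, also stand behind the next lists. Of 11 genes known as Nr4a targets, 10 were tested in the hypothalamus and 2 were called, in opposite directions. Pomc, the precursor of melanocortins and a target of Nr4a1 in the pituitary, fell to 101 ± 17.5 CPM in dams, against 197 ± 73.6 CPM in virgins, a log2 fold change of -0.97 ± 0.16 (edgeR adjusted p = 0.00305). Without virgin replicate 1 the log2 fold change was -0.62 and the call was lost (adjusted p = 0.068). Pomc is also among the hypothalamus markers counted above as called lower, so the marker count and this target are not separate results. Drd2, the dopamine D2 receptor, rose by 0.45 ± 0.11 (adjusted p = 0.0221), again a call lost without virgin replicate 1 (adjusted p = 0.174). In the hippocampus 1 of 6 was called, Ddc (0.49 ± 0.13, adjusted p = 0.0348), lost without any 1 of the virgins, and in the neocortex and in the cerebellum 0 of 5 were called.

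Of 21 other nuclear receptors, most of them orphan or steroid receptors, those called were 3 of 18 tested in the hypothalamus, 2 of 16 in the hippocampus, 1 of 15 in the neocortex and 5 of 16 in the cerebellum. The cerebellar count was 2 without virgin replicate 1, 0 without replicate 2 and 9 without replicate 3, in a region where 15.6% of all genes were called lower and 13.9% higher. Esrra, an estrogen-related receptor of energy metabolism, rose in the hypothalamus by 0.33 ± 0.06 log2 units, a call lost without virgin replicate 1 (edgeR adjusted p = 0.0842). Nr2f2 fell there by 0.26, a call that held in only 17 of 18 fits without 1 library (largest edgeR adjusted p = 0.0645). The clock repressor Nr1d1 fell by 0.35 in the neocortex (SE 0.05, edgeR adjusted p = 0.000198) and by 0.38 in the cerebellum (SE 0.07, adjusted p = 0.00241), and the call in the neocortex remained without any 1 library while that in the cerebellum was lost without virgin replicate 2 (adjusted p = 0.0501).

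Markers of neighbouring cell groups were read beside these values. Nr4a2 is a known marker of the claustrum, cortical layer 6b and subiculum. Of 12 markers of these, 11 were in the files and their summed level in the neocortex was 436 to 511 CPM in dams and 480 to 508 CPM in virgins, with 0 of 10 tested called. In the hypothalamus 1 of 10 rose (Nxph4, 0.91 ± 0.16 log2 units) and 1 fell (Gnb4, by 0.21), with sums of 504 to 588 CPM in dams and 534 to 576 CPM in virgins. Over all libraries of a region the median sum was higher in the hypothalamus (550 CPM) than in the neocortex (484 CPM). The sum is therefore not particular to these cell groups. In the hippocampus 1 of 10 was called higher and 1 lower (2.23% and 3.92% of all genes), and in the cerebellum 1 of 8 higher and 2 lower (13.9% and 15.6%). None of these calls held without virgin replicate 1 in either region, and the call of Gnb4 was lost without it too. Choroid plexus markers varied more, with sums of 207 to 7597 CPM in dams (median 4575) and 562 to 2066 CPM in virgins (median 1178) in the hippocampus. In the cerebellum they were 123 to 3663 CPM in dams and 1157 to 4362 CPM in virgins, and 0 of 10 were called in either region. In the hippocampus the median log2 fold change of the 10 was 1.84, with 9 of 10 called higher without PP1 replicate 3 and 10 of 10 without PP3 replicate 2. Their part in the Nr4a values was not tested.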

How the data were processed

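RNA was sequenced from 72 dissected regions of 18 mice. The authors trimmed reads with Trimmomatic 0.32, aligned them with TopHat 2.0.8 to GRCm38 with Ensembl gene models, and deposited whole-number counts per gene (easyRNASeq, no normalization) and FPKM per gene (Cufflinks 2.1.1). The kit does not mark strand, and no annotated gene overlaps the 3 members. Blank FPKM cells (196 genes) were read as 0. The sources differ on whether the plug day is counted as a day of pregnancy.

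Members and lists were chosen with earlier results of these data known. From the deposited counts, edgeR 4.0.16 (R 4.3.3) fitted stages within a region on genes reaching 1 FPKM in each of the 3 mice of any stage, with TMM factors, the quasi-likelihood test and Benjamini-Hochberg adjustment at 0.05. CPM were scaled by the same factors. The fitting was tested on simulated counts. Named genes were the 3 members, the 5 genes most correlated with each, up to 3 called genes per list and region with the largest fold change, and the top marker of a region. Log2 CPM used a prior count of 2. Replicate numbers follow single mice, each of which gave all 4 regions, so samples are paired between regions by animal; deviations of members correlated at r of 0.107 to 0.865 between regions. P-values of region differences set the difference against the spread between libraries, with those of a mouse taken as independent. Permutation p-values measure how deviations go together over orders of mice within stages. P-values of dams against virgins set the difference against the spread between these mice, estimated with information shared across genes. Of 72 replicate pairs, 0 held identical values. Alternatives were DESeq2 1.42.0, other scaling and filters, FPKM ratios, a mouse block, and leaving out each library or mouse. The smallest depth was 8875029 counts.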

Additional observations from a re-analysis of the deposited data

Results flagged for a closer look

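Nr4a2 moved in opposite directions in different regions of the same mice at 3 stages, with all 3 mice of the stage above all 3 virgins in one region and below them in another. At PC14 the log2 fold change in the hypothalamus minus that in the neocortex was 1.23. At PC16 the hypothalamus minus the cerebellum gave 2.44. At PP10 the hypothalamus minus the neocortex gave 1.33, and the hypothalamus minus the cerebellum 1.97. These differences were not tested, since Nr4a2 was chosen for this pattern. At PC14, PC16 and PP10, 8.36%, 9.9% and 14.4% of genes tested lay above all virgins in the hypothalamus. Shares below all virgins were 6.53% (PC14) and 10.5% (PP10) in the neocortex. In the cerebellum they were 9.07% (PC16) and 9.42% (PP10). How many genes had such a pair of regions was not counted. Nr4a1 and Nr4a3 had no such pair of regions at any of the 5 stages.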

How the results depend on the processing

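Log2 fold changes of the members in dams against virgins moved by less than 1 SD between mice. This held for all 72 values from other settings and all 216 values from fits without 1 library. Leaving out 1 library, Nr4a1 ran from -1.10 to -0.96 in the hypothalamus, -1.04 to -0.92 in the hippocampus, -1.52 to -1.24 in the neocortex and -1.30 to -1.06 in the cerebellum, and Nr4a2 from 0.48 to 0.70 in the hypothalamus, -0.82 to -0.57 in the neocortex and -1.48 to -0.96 in the cerebellum. Of 1080 stage values without 1 library, 8 moved further, all at PC14 or PC16. Region differences of the members kept their direction under all alternatives and their call in 321 of 324 values from fits without 1 mouse. The Nr4a2 difference, hypothalamus minus cerebellum, ran from -0.375 to -0.208. With the mouse as a replicate block this difference was -0.39 ± 0.16 (SE), and the block changed no call of a member.

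The number of genes called in dams against virgins depended on single virgins: 167 to 773 without 1 library in the hypothalamus (683 in all), 106 to 1260 in the hippocampus (856), 291 to 1042 in the neocortex (952) and 189 to 7415 in the cerebellum (4070), where the lowest count was without virgin replicate 1 and the highest without virgin replicate 3. With no filter on low values 1302 were called in the hippocampus and 1440 in the neocortex. Early-response genes called lower ran from 8 to 12, 10 to 18, 15 to 21 and 8 to 16 in these regions in that order.

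Shared deviations changed most. With log2(FPKM + 1), r = 0.795 for Nr4a1 in neocortex and cerebellum, 0.638 for Nr4a2 in hippocampus and neocortex and 0.717 for Nr4a2 with Nr4a3 in the hippocampus passed, and 0.760 for Nr4a1 with Nr4a3 in the cerebellum did not. Without the virgins the first 2 passed at 0.832 and 0.695. These are calls by Pearson r. By rank, log2(FPKM + 1) lost Nr4a3 in hypothalamus with hippocampus and with cerebellum (exact permutation test, adjusted p = 0.116 and 0.0953). In the cerebellum it lost Nr4a1 and Nr4a2 with Nr4a3 (exact permutation test, adjusted p = 0.0986 and 0.0645). Without the virgins all cerebellar pairs failed by rank (exact permutation test, adjusted p from 0.0941 to 0.151), as did Nr4a2 with Nr4a3 in the hippocampus. Without the PC16 mice, added after seeing the data, calls were lost for Nr4a1 in hippocampus and neocortex (0.815), for Nr4a3 between regions (0.564, 0.653, 0.640, 0.800, 0.607 and 0.592) and in the cerebellum (0.801, 0.599 and 0.727), and r turned negative for Nr4a2 in hypothalamus with hippocampus (-0.171) and with neocortex (-0.589), in neocortex with cerebellum (-0.026), and with Nr4a3 in the hypothalamus (-0.160). This alternative has fewer mice.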
